A study of Mus musculus with 8 samples.

Results

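Imprinted genes are the small class of mammalian genes that are read mainly from the copy inherited from 1 parent. The 33 imprinted genes described here were chosen by name: 22 are read from the paternal copy, 10 from the maternal copy, and Gnas gives transcripts of either kind depending on the promoter used. They were followed in mouse morulae at embryonic day 3.0, obtained by in vitro fertilisation, grown in KSOM medium and injected at the 1-cell stage with siRNA. The control embryos (siControl, 3 arrays) received a control siRNA and the knockdown embryos (P150KD, 5 arrays) an siRNA against P150. This protein, the product of Chaf1a, is the biggest subunit of CAF-1, a histone chaperone that deposits histones on newly copied DNA. Each one-colour array carried amplified RNA of 10 pooled embryos. No other genotype, strain or treatment was given in the labels. The arrays measured whole embryos and total transcript, so they did not tell the parental copies apart, and fewer cells of a type cannot be told apart from less RNA per cell.

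The members were found by joining the RefSeq accession of each probe to gene symbols and older names. Of 55681 probes on the array, 27235 were named with 20660 symbols, and 54 of these belonged to 31 of the 33 genes. H19 and Rian had no named probe and were not analysed here. A probe entered the test if the scanner software flagged it as well above background on 3 or more of the 8 arrays. This held for 35 member probes of 25 genes and for 30348 probes in all. Each level is a log2 signal after subtraction of the array's own 75th percentile, differences are P150KD minus siControl with their standard error (SE), and p-values come from limma with Benjamini-Hochberg adjustment over all 30348 probes and a threshold of 0.05. Levels of different probes are not comparable with each other.

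The mark that tells the 2 parental copies apart is set in the egg or the sperm, most often as DNA methylation of a control region. After fertilisation it has to survive the genome-wide loss of methylation that takes place as the embryo cleaves, for which the zinc finger protein ZFP57 binds methylated control regions and brings in the corepressor TRIM28 and DNA methyltransferases. A few paternally expressed genes are marked in another way, by histone H3 lysine 27 trimethylation (H3K27me3) carried over from the egg, and this form acts mainly before and around implantation and in the placenta. Many imprinted genes control growth, placental function or neural development and have only limited expression in the cleaving embryo.

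Chaf1a stood at 2.40, 2.09 and 2.27 on the 3 siControl arrays and at -1.47, 0.52, -0.48, -1.45 and -0.23 on P150KD replicates 1 to 5, a difference of -2.88 (SE 0.48, limma adjusted p = 0.0107). The share of spots well above background was 50.1% on the lowest array and 55.9% on the highest, and none was saturated. All 3 control arrays and P150KD replicate 1 lay in 1 column of the slide and P150KD replicates 2 to 5 in the other, so that only the first column allows a comparison within it, with 1 knockdown array. There Chaf1a differed by -3.72 (limma adjusted p = 0.0509). The 10 morula markers were well above background on all 8 arrays, and the log2 of their summed level ran from 9.48 to 9.53 in siControl and from 8.63 to 9.06 in P150KD. Of the leukocyte markers, Cd74, Coro1a and Srgn rose, and their list's summed level ran from 0.09 to 0.49 in siControl and from 2.15 to 3.30 in P150KD, while Ptprc, Laptm5, Cd53, Lyz2 and Tyrobp were above background on no array. The summed cumulus and granulosa markers ran from 0.90 to 1.17 in siControl and from 0.68 to 1.41 in P150KD, with Foxl2 above background on all 8 arrays, Cyp19a1 on 4, and Has2, Ptx3, Tnfaip6, Fshr and Col1a2 on none. The fibroblast markers ran from 2.69 to 3.31 and from 2.60 to 3.60, and the sperm markers from -2.34 to -1.99 and from -2.05 to 0.94, with no call among the 4 tested genes of either list. The part of other cells in the results was not tested. The labels call the arrays replicates without saying whether embryos were collected separately for each, and a p-value here measures only how these arrays spread.

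Most imprinted genes that could be tested did not pass the threshold after the knockdown. Of the 35 tested member probes, 1 rose and 2 fell, against 13.9% of all tested probes called in either direction, 6.28% higher and 7.66% lower. Plagl1, a zinc finger regulator of the cell cycle, supplied both the rise and 1 of the falls, from different probes, and Sfmbt2, a Polycomb-group gene required in the trophoblast, supplied the other fall. Counted by gene, with the brightest tested probe standing for each, Plagl1 rose and Sfmbt2 fell among 25 genes, against 17.1% called of 14601 tested genes, 6.65% higher and 10.5% lower. Without adjustment, 11 of the 35 probes had p under 0.05, where the share over all tested probes was 30.4%. The median difference over the 35 probes was -0.05, within a range of -2.94 to 3.66, and that over all tested probes was -0.20. In 2 member probes every P150KD array was above every siControl array, and in 6 every one was below, against 9.36% and 17.7% of all tested probes. These shares lie near or below the background of the arrays and are no result about the members as a class.

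Scaling mattered for the sign of small differences. The housekeeping genes were lower in P150KD in 19 of 19, of which 7 fell. Their median difference was -0.32, within a range of -2.42 to -0.06, against -0.24 over all tested genes. Scaling the arrays to the mean of these genes in place of the 75th percentile added 0.70 to every difference. This shift is larger than their median difference, because a mean follows the few most lowered genes. Each member probe lower by less than 0.70 turned its sign. The calls over all probes went from 1907 higher and 2324 lower to 5724 higher and 443 lower, and those of the members to 5 higher and 1 lower. The median over all tested probes was then 0.49. Quantile normalization gave 2073 higher and 1487 lower over all probes.

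**Figure D1:**
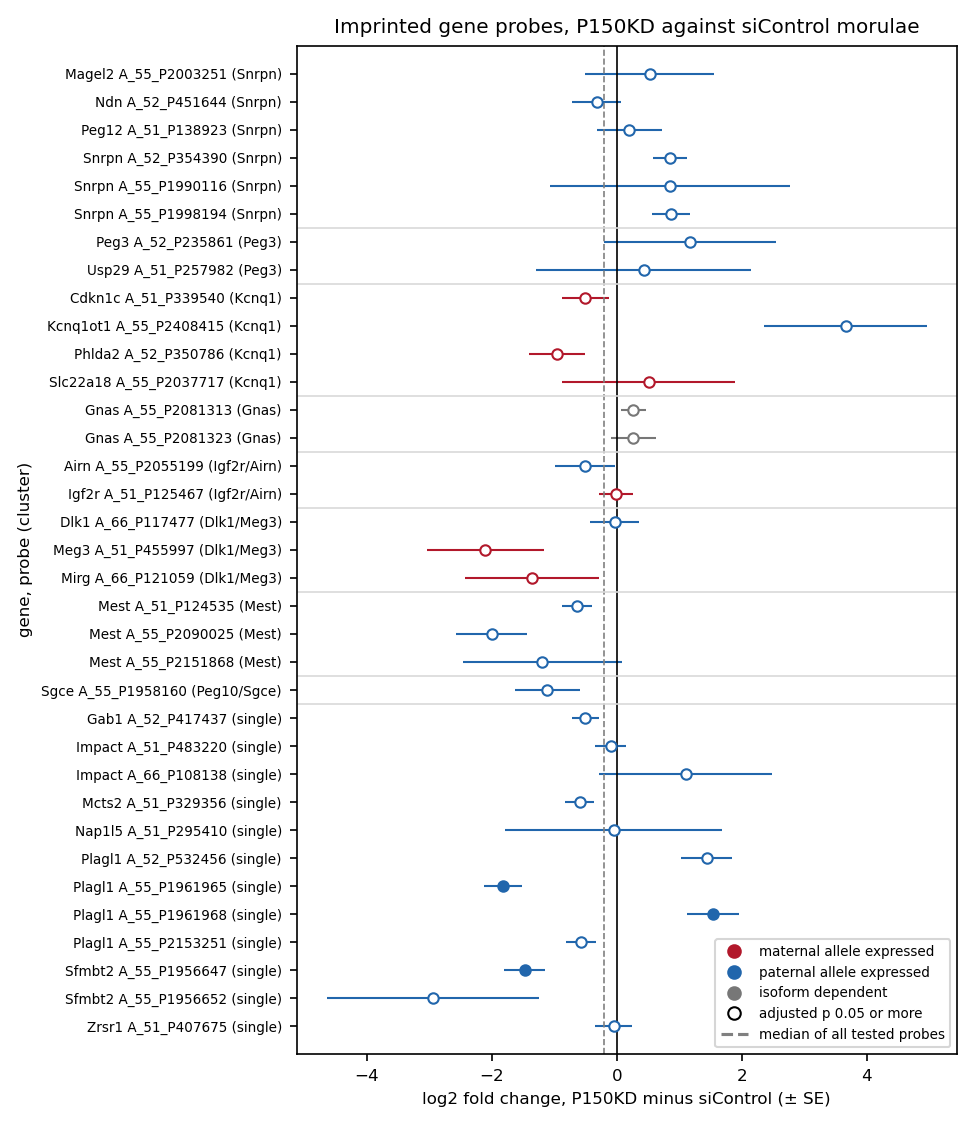
Log2 fold change (P150KD minus siControl) with its SE for the 35 tested probes of imprinted genes, in blocks by cluster and coloured by the allele that is expressed. Filled points, adjusted p under 0.05, are found at Plagl1 (1.54 and -1.82) and Sfmbt2 (-1.47), and the dashed line marks the median of all tested probes, -0.20.

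By expressed allele, no maternally expressed gene passed the threshold. The 6 tested probes of 6 maternally expressed genes had a median difference of -0.73, with 5 lower and 1 higher in P150KD. Igf2r, at -0.01, was among the lower. Against the median of all tested probes, -0.20, 4 lay below and 2 above. The 27 tested probes of 18 paternally expressed genes had a median of -0.05, with 11 higher and 16 lower, and held all 3 calls. Against the median of all tested probes, 12 of them lay below and 15 above. By kind of mark, the 29 probes of genes with maternal methylation had a median of -0.01 and held 1 rise and 1 fall. The 3 probes of genes with paternal methylation, all in the Dlk1/Meg3 cluster, had a median of -1.36 with no call. The 3 probes of genes with maternal H3K27me3 had a median of -1.47 with 1 fall. They come from 2 genes, Sfmbt2 and Gab1, and the median by gene was -0.98. These medians rest on few probes, and the differences between the classes were not tested.

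Plagl1, Mest and Snrpn are marked by maternal methylation. Sfmbt2 and Slc38a4, which both fell, are marked by maternal H3K27me3. Gab1, Jade1, Smoc1 and Xist, with the same mark, did not pass the threshold. Slc38a4 is not among the 33 genes and was chosen after its values were seen. The promoters of the 5 genes Plagl1, Mest, Snrpn, Sfmbt2 and Slc38a4 are given for the results that follow. Each is the 250 bases before the transcription start in RefSeq on build GRCm38.p6, written 5′ to 3′ on the gene's strand, at chr10:13090582-13090831 (plus strand) for Plagl1, chr6:30737800-30738049 (plus) for Mest, chr7:60005200-60005449 (minus) for Snrpn, chr2:10372186-10372435 (plus) for Sfmbt2 and chr15:97020360-97020609 (minus) for Slc38a4. Capitals mark the ZFP57 hexamer TGCCGC or its reverse complement GCGGCA.
Plagl1: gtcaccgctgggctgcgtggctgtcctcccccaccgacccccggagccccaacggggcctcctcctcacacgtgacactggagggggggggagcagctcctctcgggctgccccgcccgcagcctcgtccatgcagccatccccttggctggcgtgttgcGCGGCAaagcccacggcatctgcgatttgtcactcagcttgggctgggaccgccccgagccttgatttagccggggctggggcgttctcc
Mest: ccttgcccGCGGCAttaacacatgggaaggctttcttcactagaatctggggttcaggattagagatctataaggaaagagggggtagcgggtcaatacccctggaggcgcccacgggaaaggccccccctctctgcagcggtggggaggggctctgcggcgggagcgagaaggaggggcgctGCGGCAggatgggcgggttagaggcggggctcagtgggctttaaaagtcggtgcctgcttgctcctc
Snrpn: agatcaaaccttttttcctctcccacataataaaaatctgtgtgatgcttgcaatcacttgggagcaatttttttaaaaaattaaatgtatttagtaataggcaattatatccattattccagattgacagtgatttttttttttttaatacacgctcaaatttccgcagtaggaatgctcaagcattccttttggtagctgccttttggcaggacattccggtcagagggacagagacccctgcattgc
Sfmbt2: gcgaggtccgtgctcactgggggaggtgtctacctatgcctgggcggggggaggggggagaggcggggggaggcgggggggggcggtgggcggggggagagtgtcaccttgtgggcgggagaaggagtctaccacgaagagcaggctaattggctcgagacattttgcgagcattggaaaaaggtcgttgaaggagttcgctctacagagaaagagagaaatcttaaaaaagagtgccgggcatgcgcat
Slc38a4: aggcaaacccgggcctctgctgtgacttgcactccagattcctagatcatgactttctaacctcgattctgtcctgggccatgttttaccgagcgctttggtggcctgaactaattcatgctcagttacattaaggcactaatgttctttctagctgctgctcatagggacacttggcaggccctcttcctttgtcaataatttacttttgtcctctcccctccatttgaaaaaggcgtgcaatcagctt

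The Plagl1 stretch held 19 CpG dinucleotides and 1 hexamer, and the Mest stretch 14 and 2. The Snrpn stretch held 3 CpG and no hexamer. The Sfmbt2 stretch held 15 CpG and the Slc38a4 stretch 5, both without the hexamer. The table gave a promoter for 27 of the 33 imprinted genes, and the one with the most CpG was used where a gene had several. The hexamer was in 6 of these 27 (22.2%), namely Mcts2, Meg3, Mest, Nap1l5, Plagl1 and Zim1, and in 2468 of all 27025 genes (9.13%). It was found in 5 of 20 genes with maternal methylation, 1 of 5 with paternal methylation and 0 of 2 with maternal H3K27me3. The median number of CpG was 10 in the members and 6 in all genes. The hexamer itself holds a CpG, and the shares were not compared at equal numbers of CpG. A match of these letters is no evidence of binding, and control regions that lie away from the start are outside this window.

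Plagl1, also known as Zac1, encodes a zinc finger protein that restrains proliferation and is read from the paternal copy. It had 4 tested probes with the same transcript accession, and they moved in opposite directions. Probe A_55_P1961968 stood at 0.56, 1.22 and 1.85 on siControl replicates 1 to 3 and at 2.55, 3.60, 2.11, 2.91 and 2.57 on P150KD replicates 1 to 5. All P150KD arrays were above all controls, and the level rose by 1.54 (SE 0.41, 2.90-fold, limma adjusted p = 0.0456). Probe A_52_P532456 stood at 0.21, 0.85 and 1.53 in siControl and at 2.11, 3.13, 1.60, 2.53 and 2.16 in P150KD. The groups did not overlap here either, and the difference of 1.44 (SE 0.41) missed the threshold at a limma adjusted p of 0.0589. It passed with normexp background correction, with only probes above background on all 8 arrays, and with a robust variance trend (limma adjusted p = 0.0431, 0.0328 and 0.0409). It also passed with scaling to the housekeeping genes (2.14, limma adjusted p = 0.00991), but not under the other 14 of 18 alternatives.

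The other 2 probes of Plagl1 were lower in the knockdown. Probe A_55_P1961965 stood at -1.49, -0.84 and -0.23 in siControl and at -2.78, -2.48, -2.57, -3.10 and -2.44 in P150KD. Every P150KD array was below every control, and the level fell by 1.82 on the log2 scale (-1.82, SE 0.31, 3.53-fold, limma adjusted p = 0.0116). Probe A_55_P2153251 stood at -3.03, -3.02 and -2.14 in siControl and between -3.38 and -3.20 in P150KD, without overlap. Its difference of -0.57 (SE 0.24) did not pass (limma adjusted p = 0.155), and it turned to 0.12 with scaling to the housekeeping genes. On the control arrays all 4 probes were lowest on replicate 1 and highest on replicate 3, while in P150KD the first pair and the second pair lay on opposite sides of their controls.

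**Figure D2:**
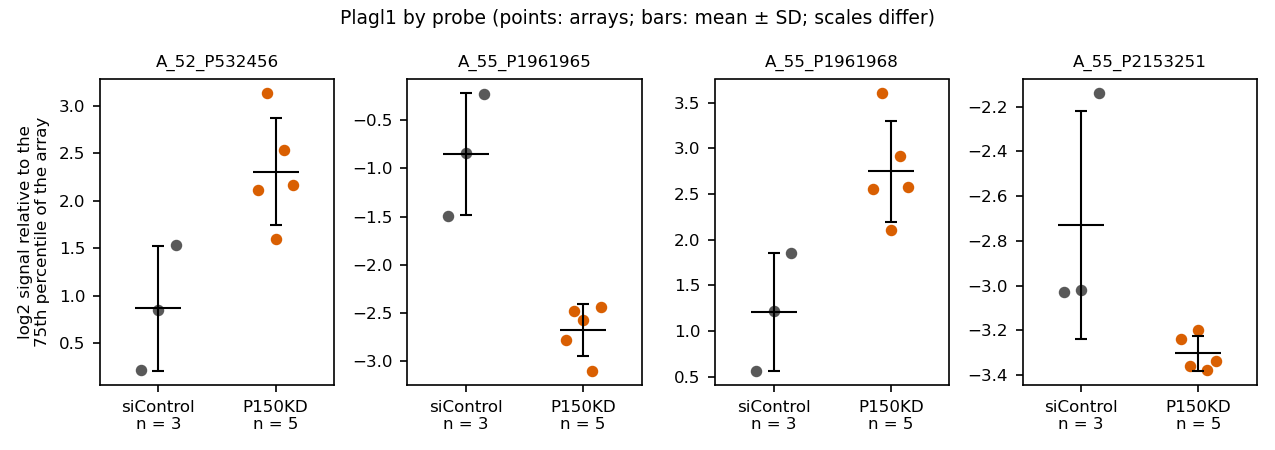
Log2 signal of the 4 Plagl1 probes on each siControl (n = 3) and P150KD (n = 5) array, with mean and SD; the y axes differ between panels. A_52_P532456 and A_55_P1961968 are higher on all P150KD arrays (1.44 and 1.54), and A_55_P1961965 and A_55_P2153251 are lower on all of them (-1.82 and -0.57).

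The unequal response of the Plagl1 probes was known from these data beforehand. Its size was fitted as the difference between 2 probes on each array, over all 4820 pairs of tested probes of 1 gene. Of these pairs 33 passed (0.685%). The imprinted genes gave 15 pairs in 6 genes, and the 2 that passed were both of Plagl1. A_52_P532456 changed by 3.26 more than A_55_P1961965 (SE 0.36, limma adjusted p = 0.0166), and A_55_P1961965 by -3.36 relative to A_55_P1961968 (SE 0.35, limma adjusted p = 0.0157). A_52_P532456 and A_55_P1961968 differed by -0.10 (SE 0.11, limma adjusted p = 0.767). Because these probes moved together, the 2 passing pairs, which share A_55_P1961965, are close to 1 result. Their p-values describe probes already known to differ and are no separate evidence. The remaining 3 pairs, all with A_55_P2153251, had limma adjusted p between 0.0662 and 0.0824. The files do not say where on the transcript or gene each probe lies.

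The rise of A_55_P1961968 lost its call when any single array other than P150KD replicate 3 was left out. The differences then lay between 1.21 and 1.86 and limma adjusted p between 0.0515 and 0.147. The call was also lost with scaling to the median (1.48, limma adjusted p = 0.0969) and with no filter (1.54, limma adjusted p = 0.0774). A block for the replicate number removed it too (1.54, limma adjusted p = 0.248). With P150KD replicate 1 alone against the controls in the first slide column the difference was 1.34. The fall of A_55_P1961965 kept its call with each array left out, and within that column it was -1.93 (limma adjusted p = 0.124). Within the column the 2 unequal pairs were 3.17 and -3.27 (limma adjusted p = 0.243 and 0.212). Without siControl replicate 1, 2 or 3 the first pair was 3.25, 3.24 and 3.28 (limma adjusted p = 0.051, 0.0663 and 0.052), and without siControl replicate 2 the second was -3.36 (limma adjusted p = 0.0599).

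Sfmbt2 and Gab1 are read from the paternal copy under maternal H3K27me3, and both were lower in P150KD in all of their tested probes, with 1 call. Sfmbt2 probe A_55_P1956647 stood at 3.58, 3.10 and 3.18 in siControl and at 1.57, 2.70, 1.30, 1.57 and 1.94 in P150KD. P150KD replicate 2 was the nearest to the controls and the groups did not overlap. The level fell by 1.47 on the log2 scale (-1.47, SE 0.33, 2.78-fold, limma adjusted p = 0.0282). A further Sfmbt2 probe, A_55_P1956652, stood at -1.20, 0.14 and 2.40 in siControl and at -3.46, -7.14, 0.26, -0.93 and -1.22 in P150KD. It was above background on 4 of the 5 P150KD arrays, with replicate 2 the lowest, and the groups overlapped. The difference of -2.94 (SE 1.70) did not pass (limma adjusted p = 0.285), and was -1.78 without P150KD replicate 2, -1.97 without siControl replicate 3 and -3.76 without siControl replicate 1, so its size is not well determined. Gab1, an adaptor of growth factor receptors needed in the placenta, stood at 1.45, 2.04 and 1.80 in siControl and at 0.97, 1.29, 1.62, 1.35 and 1.06 in P150KD. Only P150KD replicate 3 reached the range of the controls, and the difference was -0.50 (SE 0.22, limma adjusted p = 0.176), which turned to 0.19 with scaling to the housekeeping genes.

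The fall of Sfmbt2 lost its call when any single array other than P150KD replicate 2 was left out, with differences between -1.57 and -1.33 and limma adjusted p between 0.052 and 0.104. Within the first slide column it was -1.72 (limma adjusted p = 0.178), and with scaling to the housekeeping genes -0.78 (limma adjusted p = 0.121). Sfmbt2 and Gab1 serve the trophoblast, and markers of the trophectoderm, the outer layer that gives rise to it, moved in the same embryos. Of 9 tested trophectoderm markers, Id2, Fabp3, Krt18 and Gata3 fell and Hand1 rose, and the log2 of the list's summed level ran from 8.64 to 8.78 in siControl and from 6.93 to 7.29 in P150KD. Their part in the fall of Sfmbt2 was not tested.

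A further 4 genes known to be marked by maternal H3K27me3 were taken from general knowledge after their values were seen, and their values describe those genes alone. Of these, Jade1 and Xist had 2 tested probes each, of which only the brightest is shown. Slc38a4, an amino acid transporter of the placenta, stood at 4.31, 3.99 and 3.73 in siControl and at 1.66, 2.14, 1.82, 1.82 and 2.36 in P150KD. The groups were far apart, and the level fell by 2.05 on the log2 scale (-2.05, SE 0.23, 4.15-fold, limma adjusted p = 0.00349). Within the first slide column the difference was -2.35 (limma adjusted p = 0.0375). Jade1, a subunit of a histone acetyltransferase, differed by -0.02 (SE 0.30, limma adjusted p = 0.965) and Smoc1, a secreted matrix protein, by -0.39 (SE 0.27, limma adjusted p = 0.376), each with overlapping groups. Xist, the RNA that silences an X chromosome, ran from 4.13 to 4.66 in siControl and from 4.69 to 5.25 in P150KD. Its groups did not overlap, and the difference of 0.64 (SE 0.22) did not pass (limma adjusted p = 0.0927). The share of female embryos in each pool is not known here, and its part in this difference was not tested.

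**Figure D3:**
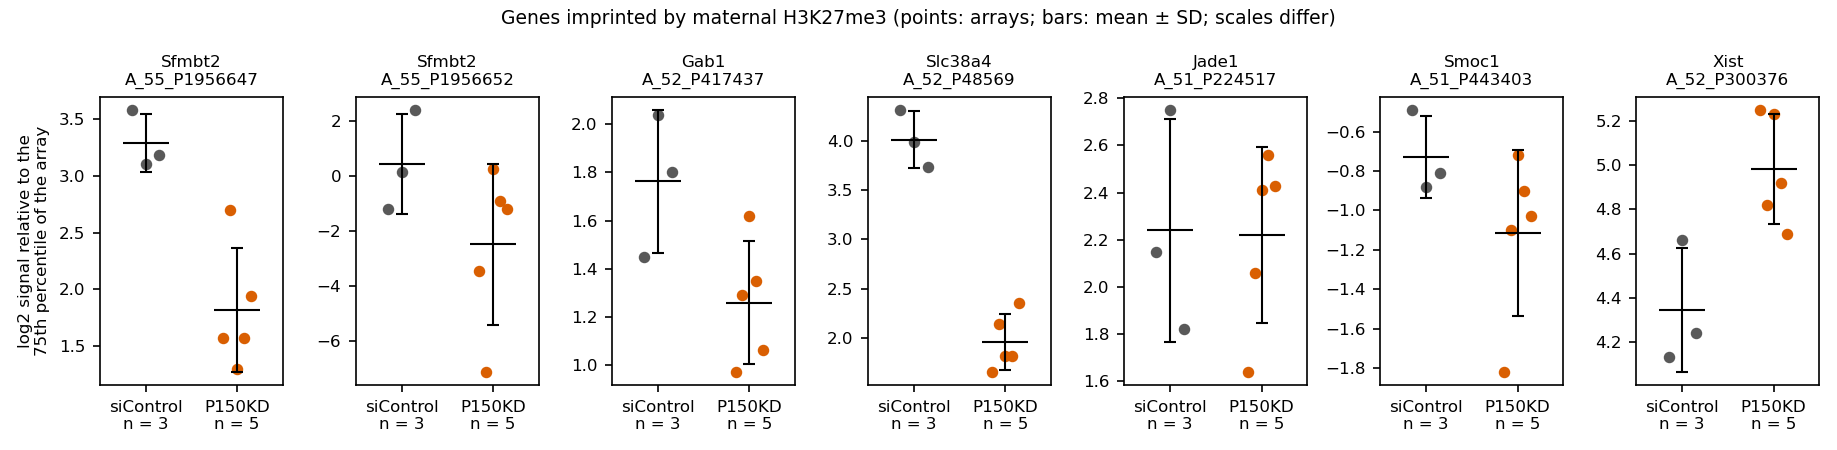
Log2 signal on each siControl (n = 3) and P150KD (n = 5) array, with mean and SD, for genes known to be marked by maternal H3K27me3; the y axes differ between panels. Slc38a4 (-2.05) and Sfmbt2 A_55_P1956647 (-1.47) are lower on all P150KD arrays, the groups overlap for Sfmbt2 A_55_P1956652 (-2.94), Gab1 (-0.50), Jade1 (-0.02) and Smoc1 (-0.39), and Xist (0.64) is higher on all P150KD arrays.

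Mest encodes a hydrolase-like protein of mesoderm and placenta and is read from the paternal copy. None of its 3 tested probes passed. Probe A_55_P2090025 stood at -0.73, -0.31 and 1.48 in siControl and at -1.46, -2.13, -1.98, -2.65 and -1.02 in P150KD. All P150KD arrays were below all controls, and the difference was -2.0 (SE 0.57, limma adjusted p = 0.0576). The same 3 alternatives that brought the Plagl1 probe A_52_P532456 past the threshold brought this one past it too (limma adjusted p = 0.0448, 0.0317 and 0.0484). Probe A_51_P124535 stood at 2.94, 2.97 and 2.68 in siControl and at 2.56, 2.38, 2.36, 1.61 and 2.24 in P150KD. The groups again did not overlap, and the difference of -0.64 (SE 0.24, limma adjusted p = 0.126) turned to 0.06 with scaling to the housekeeping genes. These 2 probes differed in their change by 1.36 (SE 0.59, limma adjusted p = 0.418). Probe A_55_P2151868 was well above background on 2 siControl arrays and 1 P150KD array and gave -1.19 (SE 1.27, limma adjusted p = 0.563).

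The Snrpn cluster, paternally expressed and known for its loss in Prader-Willi syndrome, had 6 tested probes with a median of 0.69, 5 of them higher and none called. Of these probes 3 belong to Snrpn itself. Counted by gene, with the brightest tested probe, the median was 0.36, with 3 genes higher and 1 lower. Snrpn, a component of the splicing machinery whose transcript also carries Snurf, stood on probe A_52_P354390 at 1.39, 2.25 and 1.95 in siControl and at 2.99, 2.92, 2.57, 2.23 and 2.82 in P150KD. Only P150KD replicate 4 lay within the range of the controls. The difference was 0.85 (SE 0.27, limma adjusted p = 0.0790). Probe A_55_P1998194 stood at -2.05, -1.46 and -2.15 in siControl and at -0.92, -0.54, -1.28, -1.63 and -0.74 in P150KD, where again only replicate 4 was within the control range. It differed by 0.87 (SE 0.30, limma adjusted p = 0.102). With scaling to the housekeeping genes both probes passed, at 1.54 and 1.56 (limma adjusted p = 0.00629 and 0.0101). The third Snrpn probe, A_55_P1990116, was above background on 1 siControl and 2 P150KD arrays (0.85, SE 1.92, limma adjusted p = 0.798). The neighbouring Ndn, a MAGE-family protein of neurons, differed by -0.32 (SE 0.39, limma adjusted p = 0.621), Magel2, of the same family, by 0.53 (SE 1.03, limma adjusted p = 0.761), and Peg12, a relative of the Wnt pathway protein FRAT, by 0.20 (SE 0.52, limma adjusted p = 0.825). Their groups overlapped.

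The Kcnq1 cluster joins Kcnq1ot1, a long noncoding RNA read from the paternal copy that silences its neighbours in cis, with maternally expressed growth restrainers. The single tested probe of Kcnq1ot1 stood at -0.96, -3.50 and -6.95 in siControl and at -2.07, 0.59, 0.53, 0.64 and -0.44 in P150KD. The control on replicate 3 was not above background, and P150KD replicates 2 to 5 were above every control. The difference of 3.66 (SE 1.30) did not pass (limma adjusted p = 0.104), and its size rests on single controls, with 2.08 without siControl replicate 3 and 5.08 without siControl replicate 1. Phlda2, which limits growth of the placenta, stood at 0.44, 0.62 and -0.86 in siControl and at -0.75, -0.93, -1.82, -0.59 and -0.36 in P150KD. The groups overlapped (-0.96, SE 0.45, limma adjusted p = 0.198). Cdkn1c, an inhibitor of cyclin-dependent kinases, differed by -0.50 (SE 0.37, limma adjusted p = 0.395) and turned to 0.19 with scaling to the housekeeping genes. Slc22a18, a transporter, was above background on 4 of 8 arrays and differed by 0.51 (SE 1.38, limma adjusted p = 0.832). No member of the cluster passed.

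The Dlk1/Meg3 cluster carries the paternal methylation mark. Meg3, a long noncoding RNA read from the maternal copy, stood on probe A_51_P455997 at -0.53, 0.07 and -0.35 in siControl and at -2.85, -2.66, -4.87, -0.76 and -0.73 in P150KD. All P150KD arrays were below the controls, replicates 4 and 5 only just, and the difference of -2.10 (SE 0.93) did not pass (limma adjusted p = 0.177). P150KD replicate 3, the lowest, was not above background on this probe, so the size of the difference is not well determined. Mirg, a further maternal noncoding RNA that hosts microRNAs, stood at 2.06, 0.22 and 2.15 in siControl and at 0.69, 2.05, 1.07, -0.50 and -2.72 in P150KD. The groups overlapped (-1.36, SE 1.07, limma adjusted p = 0.426). Dlk1, a membrane protein related to Notch ligands and read from the paternal copy, differed by -0.03 (SE 0.39, limma adjusted p = 0.970).

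Igf2r, the receptor that clears the growth factor IGF2 and is read from the maternal copy, stood at 5.22 ± 0.56 (SD, n = 3) in siControl and 5.21 ± 0.17 (SD, n = 5) in P150KD. The difference was -0.01 (SE 0.27, limma adjusted p = 0.985). Airn, the noncoding RNA that silences Igf2r on the paternal copy, differed by -0.51 (SE 0.48, limma adjusted p = 0.515), or 0.19 with scaling to the housekeeping genes. Gnas, which encodes a G protein subunit, stood on probe A_55_P2081313 at 6.26 ± 0.37 (SD, n = 3) and 6.52 ± 0.06 (SD, n = 5), and neither this probe (0.26, SE 0.20, limma adjusted p = 0.421) nor A_55_P2081323 (0.26, SE 0.36, limma adjusted p = 0.669) passed. With scaling to the housekeeping genes A_55_P2081313 passed, at 0.95 (limma adjusted p = 0.0162). Sgce, a sarcoglycan read from the paternal copy next to Peg10, stood at 1.95, 1.18 and 1.96 in siControl and at 1.10, -0.83, 0.44, 1.49 and 0.70 in P150KD. Of these, P150KD replicate 4 alone lay within the range of the controls, and the difference was -1.11 (SE 0.52, limma adjusted p = 0.194). In the Peg3 cluster, Peg3, a zinc finger gene, differed by 1.17 (SE 1.37, limma adjusted p = 0.602) and Usp29, a ubiquitin protease, by 0.43 (SE 1.72, limma adjusted p = 0.888), each with arrays below background in both groups.

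The remaining tested genes are single imprinted genes, several of them retrogenes, copies made from the mRNA of another gene. Mcts2, a retrogene of Mcts1, stood at 5.58, 5.15 and 5.63 in siControl and at 5.08, 5.19, 4.85, 4.67 and 4.49 in P150KD. P150KD replicate 2 overlapped the controls, and the difference of -0.59 (SE 0.23, limma adjusted p = 0.127) turned to 0.10 with scaling to the housekeeping genes. Zrsr1, a retrogene related to a splicing factor, differed by -0.05 (SE 0.30, limma adjusted p = 0.932) and Nap1l5, which is similar to nucleosome assembly proteins, by -0.05 (SE 1.74, limma adjusted p = 0.989). The Nap1l5 probe was above background on 1 siControl array and 2 P150KD arrays, so its small difference does not show an unchanged level. Probes of Mcts2 and Zrsr1 could share signal with the genes they derive from. Impact, a regulator of translation under stress, differed by -0.10 (SE 0.25, limma adjusted p = 0.807) on A_51_P483220 and by 1.10 (SE 1.38, limma adjusted p = 0.626) on A_66_P108138.

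**Figure D4:**
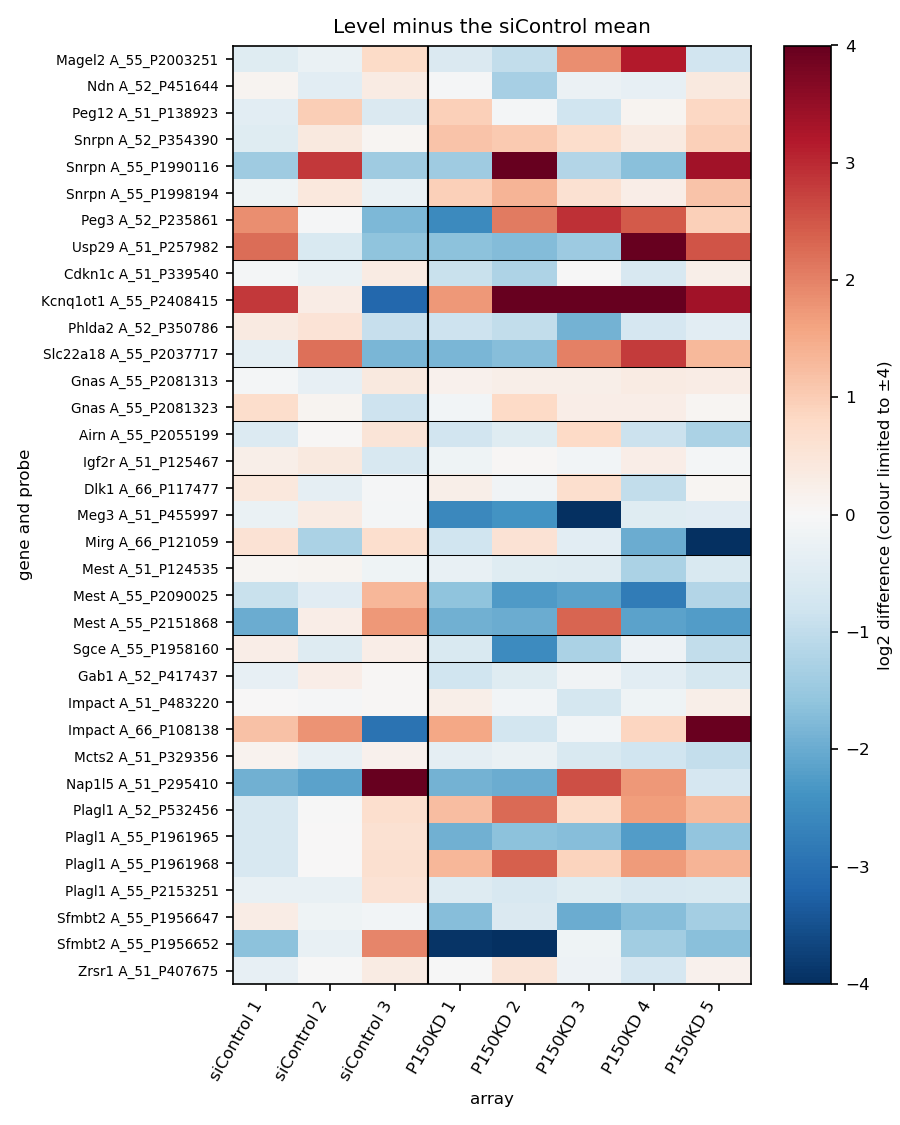
Log2 level of the 35 tested member probes on each array minus the mean of the 3 siControl arrays, in blocks by cluster; colours are limited to 4 in either direction. The Plagl1 probes A_52_P532456 and A_55_P1961968 are raised and A_55_P1961965 is lowered in all 5 P150KD columns, while Kcnq1ot1 is raised in P150KD replicates 1 to 5 relative to a control mean of -3.81 that rests on spread controls.

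For 6 genes no probe reached 3 arrays, so they had no test. Igf2, the fetal growth factor, and Rtl1, a retrotransposon-derived placental gene, were above background on no array. Grb10, an adaptor that restrains insulin signalling, was above background on 0 of 3 siControl and 2 of 5 P150KD arrays, and Peg10, a further retrotransposon-derived placental gene, on 0 of 3 and 1 of 5. Nnat, a small membrane protein of neurons, was above background on 1 siControl array. Zim1, a zinc finger gene, was above background on siControl replicate 1 alone, at -0.06 on probe A_55_P1997320. On siControl replicates 2 and 3 this probe stood at -7.29 and -7.03, below background as on all P150KD arrays, so no fold change between the groups is given. Further probes of Kcnq1ot1, Airn, Peg3, Zim1 (A_55_P1978716), Peg10 (A_55_P2029763), Nnat (A_52_P484956), Dlk1, Nap1l5, Gnas and Sfmbt2 were above background on no array, 2 further Meg3 probes on 1 siControl array each, and a further Peg12 probe on 1 array of each group. A signal below background gave no order between the groups.

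Of 53 other imprinted genes listed from general knowledge, 35 were tested, of which 0 rose and 2 fell in the limma fit, against 6.65% higher and 10.5% lower of all tested genes. At an unadjusted p under 0.05 there were 8, against 35.6% of all tested genes. The median difference of the 35 genes was -0.16, and that of all tested genes -0.24. The second to fall beside Slc38a4 was Commd1, a copper and NF-kappaB regulator whose imprinting is tied to the retrogene Zrsr1 inside it. It stood at 2.34 ± 0.16 (SD, n = 3) in siControl and 1.21 ± 0.24 (SD, n = 5) in P150KD (-1.13, SE 0.20, limma adjusted p = 0.0124). Zrsr1 itself differed by -0.05, as given above. The fall of Commd1 was -1.39 within the first slide column (limma adjusted p = 0.0806) and -0.43 with scaling to the housekeeping genes (limma adjusted p = 0.195).

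Among 26 listed factors that set, read or keep imprints, 24 were tested, of which 1 rose and 6 fell, against 6.65% higher and 10.5% lower of all tested genes. At an unadjusted limma p under 0.05 there were 9 of the 24, against 35.6% of all tested genes. The median difference was -0.24 both for the 24 factors and for all tested genes, so these counts are no result about the factors as a class. The falls were Dnmt3b, a de novo DNA methyltransferase (-1.33, SE 0.17), Uhrf1, which brings DNMT1 to copied DNA (-1.39, SE 0.19), Dnmt3l, a cofactor of the de novo enzymes (-1.0, SE 0.18), Trim28 (-0.93, SE 0.21), Zfp42 (-0.65, SE 0.15), a zinc finger gene also known as Rex1, and Hells, a chromatin remodeller needed for DNA methylation (-0.97, SE 0.24). Their limma adjusted p ran from 0.00508 for Dnmt3b to 0.0343 for Hells. Smchd1, a structural chromatin protein that acts on the inactive X chromosome and on imprinted clusters, rose by 1.21 (SE 0.28, limma adjusted p = 0.0297). Dnmt3b had 3 tested probes and Smchd1 and Zfp57 had 2 each, of which only the brightest is shown. Zfp57 differed by -0.57 (SE 0.30, limma adjusted p = 0.242), Dnmt1, the maintenance methyltransferase, by 0.29 (SE 0.49, limma adjusted p = 0.727), and Dppa3, which protects maternal methylation in the zygote, by -0.27 (SE 0.22, limma adjusted p = 0.451). With scaling to the housekeeping genes Dnmt3b still passed (-0.63, limma adjusted p = 0.0278), Uhrf1, Dnmt3l, Trim28 and Hells did not, and Zfp42 turned to 0.05. Dnmt3b and Uhrf1 kept their call with each single array left out, and Dnmt3l lost it without siControl replicate 1 (limma adjusted p = 0.0536). Trim28 lost it without any array but P150KD replicate 5, Hells without any but siControl replicate 3, Smchd1 without any but P150KD replicates 2 and 3, and Zfp42 without any array, with limma adjusted p between 0.0502 and 0.12. None of these 7 passed within the first slide column, where limma adjusted p ran from 0.0633 for Dnmt3b to 0.333 for Zfp42.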

How the data were processed

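RNA of 8 pools of 10 morulae was measured on one-colour Agilent arrays, 3 siControl and 5 P150KD, grouped by the labels. Per the labels' protocols, RNA went through a two-round linear amplification and an equal mass was labelled, so levels are relative to the rest of the array's RNA. The scans were read with Agilent Feature Extraction 10.5.1, per the submitters' processing notes. The deposited processed signal is an intensity, corrected for background and not normalized between arrays, and the deposited median signals of spot and local background hold raw intensity. The remaining deposited columns used are 0 or 1 flags. The deposited series table holds log2 values with array medians from -0.215 to 0.091. Set against the scanner files, these proved to be 75th-percentile-scaled signals with each probe centred on its median, and 99.9% of them lay within 0.05 of the recomputed values.

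Control spots were dropped from the files, which left 59305 spots. Spots flagged as non-uniform or as population outliers were left out, unless all spots of a probe were flagged. The rest were averaged by probe. The log2 processed signal was taken and the 75th percentile over probes, between 819.5 and 1304.5, was subtracted. No spot was saturated, and the number of arrays limits the precision. Probes were named by RefSeq accession through the RefSeq gene table, and 1450 probes with a RefSeq accession had no match. Probes well above background on at least 3 of 8 arrays were tested in R 4.3.3 by a two-sided test without covariates in limma 3.58.1 (functions lmFit and eBayes), and p-values were adjusted by Benjamini-Hochberg across the 30348 probes. Pairs of probes of 1 gene were tested in the same way on their difference per array. The procedure was tested on simulated data. Tables and figures were made with Python 3.11.15, pandas 2.3.3, numpy 2.4.6 and matplotlib 3.10.9.

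The text names every member with all its probes, Chaf1a, and those other imprinted genes and regulators past the threshold, up to 8 of each list by smallest p. Values of other genes were chosen after they were seen. Tested genes that are not members are shown by their brightest tested probe alone. The members, lists and marker genes were chosen with earlier results of these data known. A summed marker level is the log2 of the sum of the linear signals of the list. Alternatives were normexp with an offset of 50, run on the median signals, quantile normalization, scaling to the median or to the housekeeping genes, the series table, no filter, a filter on all 8 arrays, eBayes with trend and robust, a block for the slide column or for the replicate number, the mean of a gene's probes, and leaving out each array. H19 and Rian were not analysed here.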

Additional observations from a re-analysis of the deposited data

Results flagged for a closer look

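On the Mest probe A_55_P2151868 the P150KD array of replicate 3 stood at -2.92, far from the other P150KD arrays, which ran from -7.47 to -7.17. The gap was 0.934 of the whole range of the group. It was the sole P150KD array on which this probe was well above background. The 5 P150KD arrays were examined in this way on 46 probes. These were the tested member probes and those of other imprinted genes, regulators and CAF-1 subunits past the threshold. Of them 1 was set apart, where chance sets apart about 1 in 20 groups.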

How the results depend on the processing

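With 3 and 5 arrays, few member probes lay clear of the threshold, and the values of dim probes were spread over several log2 units. Of the 35 tested member probes, 11 kept their sign under all 18 alternatives, a further 4 kept it under the 17 that gave them a value (all but the filter on all 8 arrays), and 8 passed the threshold in at least 1. The sign of 3 Plagl1 probes (A_52_P532456, A_55_P1961965 and A_55_P1961968) was the same throughout. Where a call was lost the cause was not tested.

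Calls are given as higher and lower, first over all tested probes (1907 and 2324 as reported), then member probes (1 and 2), then member genes (1 and 1), and last unequal member pairs (2). Normexp correction gave 1921 and 2674, 2 and 3, 1 and 1, and 4 pairs. Quantile normalization gave 2073 and 1487, 1 and 1, 1 and 0, and 4 pairs. Scaling to the median gave 1474 and 1512, 0 and 1, and 0 and 0, and scaling to the housekeeping genes 5724 and 443, 5 and 1, and 3 and 0. Pairs do not depend on such scaling. No filter gave 1429 and 1626, 0 and 2, and 0 and 1, and the filter on all 8 arrays 1731 and 3100, 3 and 3, 2 and 1, and 4 pairs. The trend and robust setting gave 2212 and 3104, 2 and 3, and 1 and 1. Averaging the probes of each gene gave 0 and 0 member genes. The series table gave 1901 and 2339, with the member counts as reported. Leaving out 1 array gave 1016 to 1770 higher and 690 to 1979 lower calls over all probes, 0 to 1 higher and 1 to 2 lower member probes, 0 to 1 higher and 0 to 1 lower member genes, and 0 to 2 pairs. The block for the slide column, which leaves P150KD replicate 1 against the controls, gave 442 higher and 271 lower probes, and 0 member probes, genes or pairs passed.

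The replicate number as a block, on the 6 arrays with numbers 1 to 3, gave 0 calls over all probes, 0 member probes, genes and pairs. The same arrays without the block, an alternative chosen after seeing the data, gave 898 and 1139 calls and 0 member probes and genes. Deviations of arrays with the same number correlated at -0.014, -0.074 and -0.017. With so few arrays, these correlations cannot show whether the numbers pair the samples. The block turned Dlk1 (0.26), Usp29 (-1.61), Slc22a18 (-0.51) and Zrsr1 (0.09).

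Other signs turned as follows. Normexp turned Igf2r (0.02), and quantile normalization Igf2r (0.23), Impact A_51_P483220 (0.12) and Zrsr1 (0.13). Scaling to the housekeeping genes turned Gab1 (0.19), Zrsr1 (0.65), Mcts2 (0.10), Nap1l5 (0.65), Plagl1 A_55_P2153251 (0.12), Cdkn1c (0.19), Igf2r (0.69), Airn (0.19), Impact A_51_P483220 (0.59), Zfp42 (0.05), Mest A_51_P124535 (0.06), Ndn (0.38) and Dlk1 (0.67). The slide column block turned Usp29 (-1.65), Snrpn A_55_P1990116 (-1.40), Slc22a18 (-1.82), Dlk1 (0.23), Impact A_51_P483220 (0.24), Gnas A_55_P2081323 (-0.11), Peg3 (-2.56) and Magel2 (-0.57). With 1 array left out, values crossed 0 for Dlk1 (-0.21 to 0.22), Gnas A_55_P2081323 (-0.15 to 0.60), Igf2r (-0.33 to 0.19), Impact A_51_P483220 (-0.19 to 0.05) and A_66_P108138 (-0.37 to 1.99), Magel2 (-0.12 to 0.92), Nap1l5 (-1.11 to 1.99), Peg12 (-0.09 to 0.70), Slc22a18 (-0.40 to 1.62), Snrpn A_55_P1990116 (-0.22 to 2.25), Usp29 (-0.58 to 1.55) and Zrsr1 (-0.21 to 0.13).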
